A study of Mus musculus with 6 samples.

Results

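The JAK kinases and STAT factors of mouse liver are described here through 9 genes: the transcription factors Stat2, Stat3, Stat5a, Stat5b and Stat6, and the kinases Jak1, Jak2, Jak3 and Tyk2. They were chosen by name, as the lines of the count tables whose symbol is one of these 9, out of 22488 genes in all. RNA from whole livers of male C57BL/6 wild-type mice, 6 to 8 weeks old, was sequenced in 6 libraries. All mice were fasted for 16 h. In the LPS group (n = 3) the mice were injected into the abdominal cavity with 6 mg/kg of LPS, a bacterial endotoxin, and in the control group (n = 3) with 200 µl of the salt solution HBSS. A different label of the controls reads no treatment, so whether the controls were injected is not settled by the labels. Neither the time from injection to sampling nor the number of mice is stated in the sources used here. P values therefore measure only the spread between these samples, which may be technical. Whole liver mixes hepatocytes with Kupffer, endothelial, stellate and blood cells, and in such bulk RNA fewer cells of a type and less RNA per cell cannot be told apart.

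JAK kinases are tyrosine kinases bound to the inner tails of cytokine receptors. When a cytokine draws receptor chains together, the kinases phosphorylate each other, the receptor and then STAT proteins, which pair, enter the nucleus and bind DNA. In liver, STAT3 is known for carrying the interleukin-6 signal to acute phase genes, STAT5 for carrying the growth hormone signal to genes of growth and male-type metabolism, STAT2 for interferon signalling together with IRF9, and STAT6 for signalling by interleukin-4 and interleukin-13. RNA levels, the quantity measured here, do not report phosphorylation of either family.

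Promoter sequence is shown for 3 members: Stat3, which had the largest rise of the family, Stat2, which also rose and whose window holds the only motif match, and Stat6, which had the largest fall. The windows come from the RefSeq promoter tables on GRCm38.p6, where all 9 members matched, with 11 windows in all since Stat5a and Stat5b have more than 1 annotated start. Each line gives the 250 bases before the annotated start, 5′ to 3′ on the gene's strand, and capitals mark a match to the interferon-stimulated response element bound by STAT2 with IRF9, searched as a pair of TTTC blocks with any 2 bases between them. The windows are Stat3 on the minus strand at chr11:100939541-100939790, Stat2 on the plus strand at chr10:128270248-128270497 and Stat6 on the plus strand at chr10:127642736-127642985.
Stat3: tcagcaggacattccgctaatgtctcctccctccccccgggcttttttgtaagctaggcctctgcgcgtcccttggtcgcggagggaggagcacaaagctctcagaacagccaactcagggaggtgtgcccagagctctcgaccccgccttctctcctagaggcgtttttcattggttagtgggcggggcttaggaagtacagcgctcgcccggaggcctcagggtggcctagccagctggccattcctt
Stat2: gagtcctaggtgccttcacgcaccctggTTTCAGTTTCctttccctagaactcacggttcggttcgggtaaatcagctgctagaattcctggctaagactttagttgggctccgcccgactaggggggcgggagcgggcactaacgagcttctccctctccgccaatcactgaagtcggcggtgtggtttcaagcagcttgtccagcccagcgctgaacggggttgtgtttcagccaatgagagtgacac
Stat6: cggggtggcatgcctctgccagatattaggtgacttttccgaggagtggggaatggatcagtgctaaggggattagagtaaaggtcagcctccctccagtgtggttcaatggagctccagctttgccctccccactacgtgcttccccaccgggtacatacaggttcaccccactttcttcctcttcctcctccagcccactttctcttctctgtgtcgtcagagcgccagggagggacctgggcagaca
The capitals in the Stat2 window read TTTCAGTTTC and run from base -222 to base -213, counting the annotated start as base 0. Searched on both strands over the 250 bases before and 50 bases after each start, this element was found in 1 of the 11 members' windows and in 3.44% of 32851 windows of all genes. The palindromic STAT dimer motif TTCNNNGAA was found in none of the 11 windows of members, in 8.30% of all windows and in 31.2% of the 16 windows of the listed STAT3 acute phase targets described further down. The other target lists held it in 27.3% (STAT5, 11 windows), 18.75% (STAT2, 16 windows) and 13.3% (STAT6, 15 windows). With so few windows a difference between these lists was not tested. A motif of this spelling that lies outside these windows, or that differs by a base, would not be counted.

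Between 11488525 and 15437785 counted reads were available per LPS library and between 12577993 and 20282004 per control library. Libraries of the same group differed by more than counting error, with a chi-square per degree of freedom of 11.6 to 31.2, so none was counted as a copy of another. Low counts were mostly even: 89.1% to 90.8% of the genes with 1 to 20 counts in a library had an even count, against 55.5% to 58.9% of the genes above 20 counts. The sources used here do not say whether both reads of a pair were counted, and results with all counts halved were computed beside the others. Of the tissue's markers, 9 of 10 listed hepatocyte genes were matched, and all of these were detected in every group.

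All 9 members passed the filter on low counts and were tested among 12078 genes. In LPS livers 6 of the 9 passed the test, against 62.3% of all genes tested: 3 rose (Stat3, Stat2 and Jak3), 3 fell (Stat6, Stat5b and Tyk2) while Stat5a, Jak1 and Jak2 had no call. Over all genes tested, 31.3% rose and 31% fell, so the counts of members lie near the background. The STAT genes had a median log2 fold change of -0.40 and the JAK genes one of 0.09, where the median over all genes tested was 0.01. In absolute size the median change over all genes was 0.71 on the log2 scale, a size that Stat3 (2.03), Stat6 (-1.0), Stat2 (0.97) and Stat5b (-0.78) exceeded and that none of the 4 kinases reached. Levels are given below in CPM, counts scaled to library size by TMM, with means ± SD over the 3 libraries of a group, and fold changes as LPS minus control on the log2 scale, followed by the standard error (SE). Adjusted p values come from edgeR over all genes tested, with 0.05 as the threshold.

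**Figure D1:**
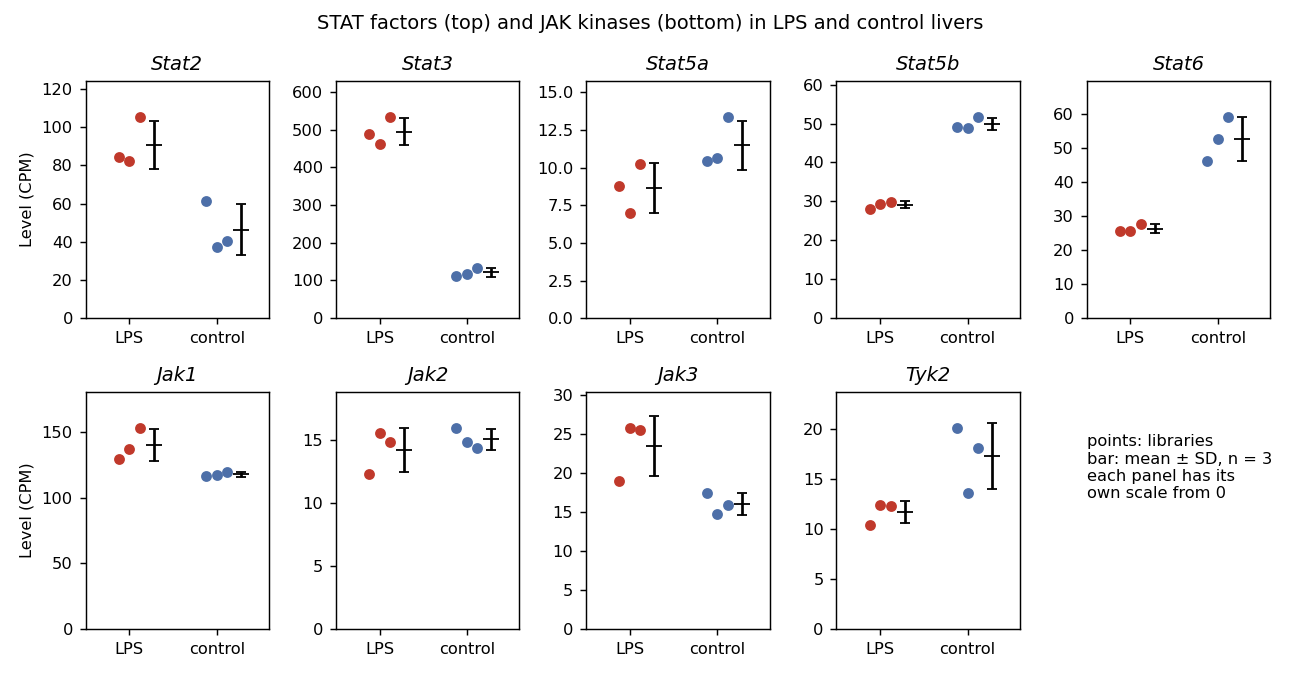
Level in CPM (vertical axis, from 0, own scale in each panel) of the 5 STAT genes (top) and 4 JAK genes (bottom) in 3 LPS and 3 control libraries, with points for libraries and bars for mean ± SD. The 3 Stat3 points of LPS livers lie between 463 and 533 CPM, above the control points at 112 to 134 CPM, and Jak2 is the only panel in which the groups overlap.

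**Figure D2:**
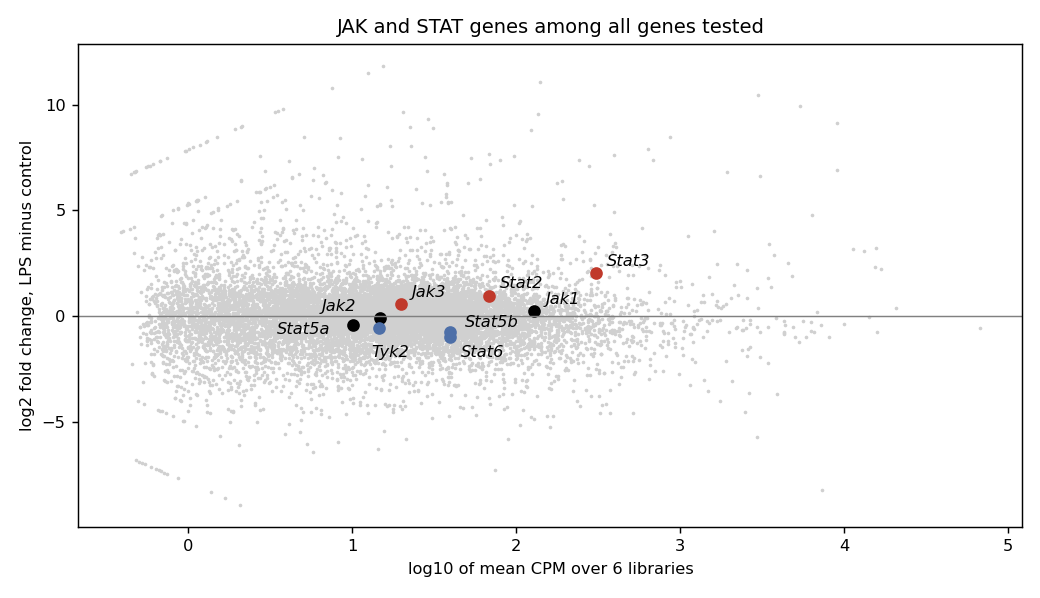
Each of 12078 tested genes (grey) and the 9 members (red higher, blue lower, black no call) by the log10 of mean CPM over 6 libraries (horizontal) and log2 fold change, LPS minus control (vertical). Stat3 stands at 2.03 with a mean of 308 CPM, while the other members lie between -1.0 and 0.97.

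Stat3, the acute phase factor activated below interleukin-6 family receptors (chromosome 11, 100885098 to 100939540, minus strand), changed most. It measured 488, 463 and 533 CPM in LPS replicates 1, 2 and 3, against 112, 118 and 134 CPM in control replicates 1, 2 and 3. Every LPS library was above every control library, and the spread within a group was small beside the gap. The log2 fold change was 2.03 (SE 0.13, adjusted p = 1.53e-08), and 5.71% of the genes tested had a larger value. By mean CPM over the 6 libraries Stat3 stood at percentile 97.0 of the genes tested. Its 3′ exons overlap those of Stat5a on the opposite strand by 72 bases of 9527, and no strand setting of the counting is stated in the sources used here.

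Stat2, the partner of IRF9 in the interferon-activated complex (chromosome 10, 128270559 to 128292849, plus strand), rose too. Its levels were 84.3, 82.4 and 105 CPM in LPS replicates 1, 2 and 3, against 61.4, 37.2 and 40.7 CPM in control replicates 1, 2 and 3. The groups did not overlap, and control replicate 1 stood above the other control libraries. The log2 fold change was 0.97 (SE 0.18, adjusted p = 3.28e-04), and it was 1.22 without control replicate 1. No exon of another annotated gene lies within Stat2.

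Stat6, which acts below the receptors of interleukin-4 and interleukin-13 (chromosome 10, 127642986 to 127660957, plus strand), fell. It had 25.5, 25.7 and 27.7 CPM in LPS replicates 1, 2 and 3, against 46.2, 52.7 and 59.0 CPM in control replicates 1, 2 and 3. The LPS libraries lay close together and well under the lowest control library. The log2 fold change was -1.0 (SE 0.13, adjusted p = 1.50e-05). The exons of Nab2, on the opposite strand, share 40 bases with Stat6, and Nab2 also fell (-1.18, SE 0.29, adjusted p = 0.00272), with 4.90 ± 1.52 CPM in LPS and 11.03 ± 3.51 CPM in control livers. The part of shared reads in either value was not tested.

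Stat5b, the main growth hormone-responsive STAT of mouse liver (chromosome 11, 100780731 to 100850724, minus strand), fell with a narrow spread. Its levels were 28.1, 29.5 and 29.8 CPM in LPS replicates 1, 2 and 3, against 49.1, 48.9 and 51.6 CPM in control replicates 1, 2 and 3. The groups were far apart for their spread, and the log2 fold change was -0.78 (SE 0.12, adjusted p = 5.62e-05). Stat5a, its close relative next to it on the chromosome (100859351 to 100885169, plus strand), was the least abundant member per length in both groups. It had 8.78, 6.96 and 10.3 CPM in LPS replicates 1, 2 and 3, against 10.4, 10.6 and 13.3 CPM in control replicates 1, 2 and 3. All LPS libraries lay under the lowest control library by a small margin, and the change did not pass the test (log2 fold change -0.40, SE 0.21, adjusted p = 0.108). Of its 7133 exon bases, 72 are shared with the far more abundant Stat3 on the opposite strand. Without a stated strand setting, Stat3 reads from those bases may be among the Stat5a counts. Their part in the Stat5a levels, and in the ratio to Stat5b given below, was not tested.

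Stat5a and Stat5b are similar in sequence. Of the 50-base windows of the longest coding transcript of Stat5a, 15.8% also occur in that of Stat5b, and 11.8% the other way round, while no other pair of members shares such a window. The sources used here do not say how reads that fit both genes were counted, so the split between them is uncertain. The ratio of Stat5a to Stat5b counts was 0.312, 0.236 and 0.344 in LPS replicates 1, 2 and 3, against 0.213, 0.217 and 0.258 in control replicates 1, 2 and 3. The groups overlapped, and a difference between the changes of the pair was not shown (log2 ratio 0.36 higher in LPS, 2-sided exact permutation p = 0.2, adjusted 0.24 over 12 such tests). With 3 libraries against 3 the smallest p this test can give is 0.1.

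Among the kinases the changes were smaller than those of Stat2, Stat3, Stat5b and Stat6, and went in both directions. Jak3, which binds the common gamma chain of interleukin receptors and is known mainly from blood cells (chromosome 8, 71676296 to 71690575, plus strand), rose. It measured 19.0, 25.8 and 25.5 CPM in LPS replicates 1, 2 and 3, against 17.5, 14.7 and 15.9 CPM in control replicates 1, 2 and 3. LPS replicate 1 lay just above the highest control library and the other LPS libraries well above it. The log2 fold change was 0.55 (SE 0.16, adjusted p = 0.00838). Insl3 overlaps it on the same strand and shares 404 exon bases with Jak3, with 0.683 ± 0.505 CPM in LPS and 0.474 ± 0.293 CPM in control livers.

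Tyk2, the kinase of interferon and interleukin-12 family receptors (chromosome 9, 21104068 to 21131243, minus strand), fell. Its levels were 10.4, 12.4 and 12.3 CPM in LPS replicates 1, 2 and 3, against 20.1, 13.6 and 18.1 CPM in control replicates 1, 2 and 3. Control replicate 2 was the lowest control library and stood just above the LPS libraries. The log2 fold change was -0.56 (SE 0.18, adjusted p = 0.0178). This call depended on single libraries: it ended without control replicate 1 (-0.44, adjusted p = 0.0746), control replicate 3 (-0.54, adjusted p = 0.0509) or LPS replicate 1 (-0.50, adjusted p = 0.0546). With other libraries left out the adjusted p was as low as 0.00431. An antisense gene, 1700084C06Rik, shares 554 of the 6865 exon bases of Tyk2 on the opposite strand. No strand setting of the counting is stated, and the part of shared reads in the Tyk2 value was not tested.

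Jak1, a kinase of the interleukin-6, interferon and common gamma chain receptors (chromosome 4, 101152367 to 101265282, minus strand), was the most abundant kinase. It had 130, 137 and 153 CPM in LPS replicates 1, 2 and 3, against 116, 117 and 120 CPM in control replicates 1, 2 and 3. The LPS libraries were all above the control libraries, but the change did not pass the test (log2 fold change 0.25, SE 0.12, adjusted p = 0.0787). Jak2, the kinase of the growth hormone and erythropoietin receptors (chromosome 19, 29251828 to 29313080, plus strand), had 12.3, 15.5 and 14.9 CPM in LPS replicates 1, 2 and 3, against 16.0, 14.9 and 14.4 CPM in control replicates 1, 2 and 3. Its groups overlapped (log2 fold change -0.08, SE 0.16, adjusted p = 0.694). In 8 of the 9 members, all but Jak2, the LPS and control libraries did not overlap, as in 67.4% of all genes tested. The LPS libraries were the higher ones in 4 of these members (34% of all genes tested) and the lower ones in the other 4 (33.4% of all genes tested).

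**Figure D3:**
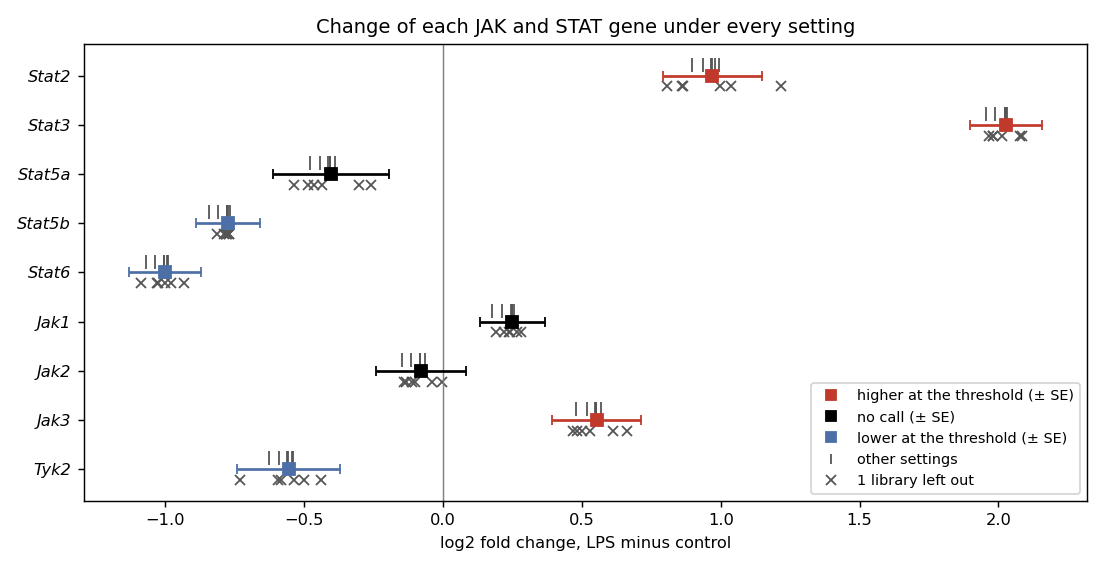
Log2 fold change, LPS minus control (horizontal), of each member: squares with bars are the value ± SE, ticks above them the other analysis settings and crosses below them the fits with 1 library left out. All 9 members stay on their side of 0 in all settings, from -0.15 to -0.0046 for Jak2 and from 1.96 to 2.08 for Stat3.

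Levels of different genes were compared as CPM per kilobase of annotated exons. In LPS livers the order from the top was Stat3 (51.9 ± 3.71 CPM per kb), Jak1 (19.4 ± 1.66), Stat2 (15.3 ± 2.14), Stat6 (5.98 ± 0.279), Stat5b (5.26 ± 0.158), Jak3 (4.38 ± 0.717), Jak2 (2.83 ± 0.343), Tyk2 (1.70 ± 0.164) and Stat5a (1.22 ± 0.232). No pair of neighbours in that order overlapped between libraries. In control livers Jak1 led (16.3 ± 0.254 CPM per kb), followed by Stat3 (12.7 ± 1.22), Stat6 (11.96 ± 1.45), Stat5b (9.01 ± 0.274), Stat2 (7.83 ± 2.21), Jak2 (3.00 ± 0.164), Jak3 (3.00 ± 0.255), Tyk2 (2.52 ± 0.485) and Stat5a (1.61 ± 0.228). There 4 neighbouring pairs overlapped and cannot be ordered: Stat3 with Stat6, Stat5b with Stat2, Jak2 with Jak3, and Jak3 with Tyk2. Measured per kilobase of the longest annotated transcript instead, 7 ranks in these orders changed, among them Jak3 above Stat5b in LPS livers and Stat2 above Stat5b in control livers. Stat3 stayed highest in LPS livers and Jak1 highest in control livers by either length.

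Within the STAT family the shares of 4 of the 5 members did not overlap between the groups. Stat3 held 66.1%, 65.1% and 64.4% of the summed level per kilobase of the 5 STAT genes in LPS replicates 1, 2 and 3, against 27.3%, 30.3% and 30.9% in control replicates 1, 2 and 3. Stat6 held 7.52% ± 0.291 in LPS and 27.7% ± 2.81 in control livers, and Stat5b 6.62% ± 0.468 in LPS and 20.9% ± 0.582 in control livers. Stat2 held 19.1% ± 1.15 in LPS and 18.2% ± 5.17 in control livers (exact p = 1). The shares of Stat3, Stat5a, Stat5b and Stat6 did not overlap between the groups (2-sided exact permutation p = 0.1 each, the smallest possible, adjusted 0.15 over 12 tests). The summed STAT level was 79.7 ± 6.34 CPM per kb in LPS and 43.2 ± 2.30 CPM per kb in control livers, 1.85-fold higher (exact p = 0.1). The summed JAK level was 28.3 ± 2.66 CPM per kb in LPS and 24.8 ± 0.799 CPM per kb in control livers, and the libraries overlapped (exact p = 0.2). Jak1 made up most of it in both groups, with 68.5% ± 2.18 in LPS and 65.7% ± 2.34 in control livers, while Jak3 held 15.4% ± 1.41 in LPS and 12.1% ± 0.674 in control livers and Tyk2 6.03% ± 0.222 in LPS and 10.1% ± 1.65 in control livers. The share of Jak2 was 10.001% ± 0.656 in LPS and 12.1% ± 0.595 in control livers, without overlap (exact p = 0.1), while its level overlapped between the groups. A share also moves when another member of the family changes, so the shares of Jak2 and Stat5a do not show a change in their own levels.

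**Figure D4:**
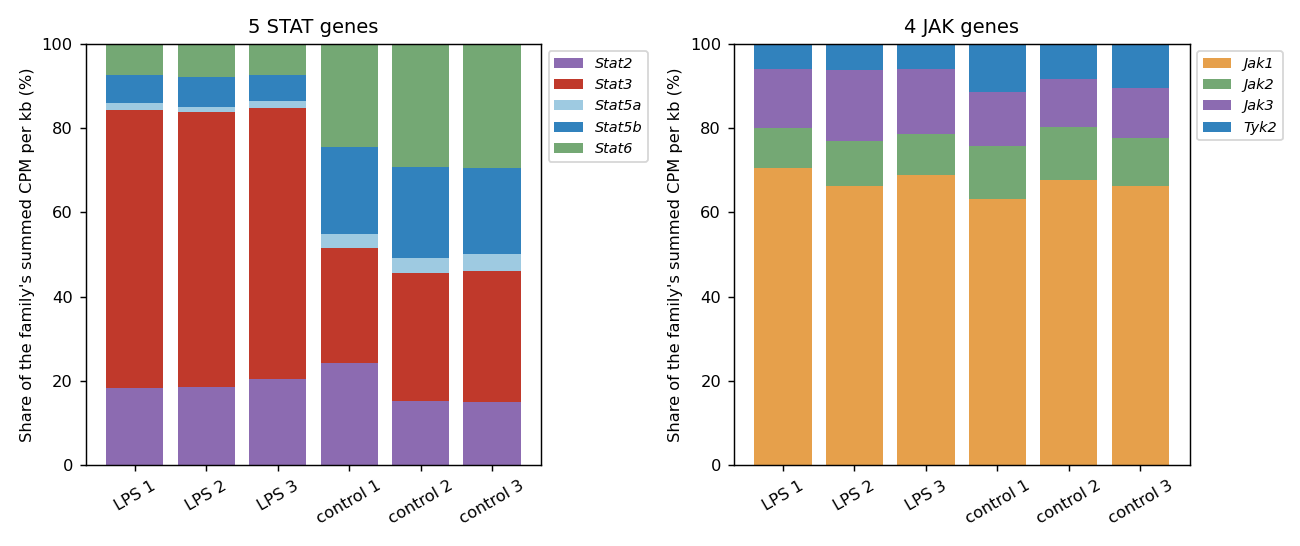
Share in percent of each family's summed CPM per kb (vertical) held by each gene in the 3 LPS and 3 control libraries, for the 5 STAT genes (left) and the 4 JAK genes (right). Stat3 takes 64.4% to 66.1% of the STAT level in LPS libraries and 27.3% to 30.9% in control libraries, while Jak1 takes most of the JAK level in all 6.

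Upstream of the kinases, cytokine ligands were mostly near the limit of detection. Of 29 listed ligand genes 8 passed the filter, with 6 that rose and 1 that fell (median log2 fold change 1.74). Over all genes tested 31.3% rose and 31% fell. Among the risers, Csf3, Il10, Osm and Il15 would not have passed the filter on their control libraries alone. Such genes could hardly enter the test without rising, so this count and median are partly set by the filter. Csf3, the granulocyte colony-stimulating factor, had 24.8 ± 1.83 CPM in LPS livers and no count in control livers, which is at least 404-fold higher when the control group is set to 3 counts. Thpo, the platelet growth factor made by hepatocytes, was the most abundant and rose (30.6 ± 6.59 CPM in LPS and 14.3 ± 1.01 CPM in control livers, 1.10, SE 0.17). The faller was Ctf1, an interleukin-6 family cytokine (-2.93, SE 0.45). Il6 itself did not pass the filter, with 18, 16 and 10 counts in LPS replicates 1, 2 and 3, against 0, 2 and 2 counts in control replicates 1, 2 and 3.

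Of 39 listed receptors that signal through JAK kinases 32 were tested, and 13 rose and 7 fell (median 0.48). Over all genes tested 31.3% rose and 31% fell, and whether this list departs from that was not tested, nor was it for the lists that follow. Among the fallers, Epor passed the filter only through its control libraries, with 71 counts there and 2 in LPS libraries. Such a gene could hardly enter the test without falling, so the receptor count and median are partly set by the filter. The smallest adjusted p values were those of Il13ra1, a receptor chain of interleukin-13 (127 ± 7.82 CPM in LPS and 21.3 ± 3.78 CPM in control livers, 2.57, SE 0.15), Osmr, the oncostatin M receptor (2.59, SE 0.18), and Il20rb (3.26, SE 0.27), all of which rose. Ghr, the growth hormone receptor, had the highest mean of the list over the 6 libraries, though not in LPS livers, where Lepr was higher (219 CPM), and it fell (111 ± 13.5 CPM in LPS and 248 ± 14.2 CPM in control livers, -1.16, SE 0.13). Picked after their values were seen, the leptin receptor Lepr (2.91) and the interleukin-4 receptor chain Il4ra (1.13) rose, and the prolactin receptor Prlr (-1.90) and the receptor chain Lifr (-0.84) fell. The shared interleukin-6 chain Il6st (0.34, adjusted p = 0.0507) and Il6ra (0.19, adjusted p = 0.381) did not pass the test. The type I interferon receptor chains, also picked after their values were seen, split, with Ifnar1 higher (0.60) and Ifnar2 lower (-0.49). Csf3r (1.19) and Il2rb (1.03), which count among the risers, also stand in the neutrophil and the T and NK cell marker lists described further down.

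Most inhibitors of the pathway rose. Among the 20 listed, all tested, 13 rose and 4 fell (median 0.71). Of these, Socs1 would not have passed the filter on its control libraries alone. Socs1 (105 ± 3.16 CPM in LPS and 0.592 ± 0.340 CPM in control livers, 7.50, SE 0.23) and Socs3 (158 ± 31.8 CPM in LPS and 8.05 ± 2.31 CPM in control livers, 4.29, SE 0.21), both of which bind and block JAK kinases, had the smallest adjusted p values together with the STAT phosphatase Ptpn2 (3.11, SE 0.14), and all 3 rose. The phosphatase Ptpn11, highest of the list by its mean over the 6 libraries, rose too (0.66, SE 0.13). The 4 that fell were Socs5 (-0.88), the phosphatase Ptpn6 (-0.53), the adaptor Sh2b3 (-0.41) and the SUMO ligase Pias2 (-0.41), and 2 to 3 fell when a library was left out. Among 9 partner genes 7 rose and 1 fell (median 0.70). Nmi, which binds STAT proteins (2.58, SE 0.15), the JAK2 adaptor Sh2b1 (1.13, SE 0.15) and Stam2 (0.75, SE 0.13) rose, and Ndufa13, a mitochondrial complex I subunit also known to bind STAT3, fell (-0.57, SE 0.12).

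Targets were listed by the factor they are best known for, though most answer to other factors as well. With edgeR all 20 tested genes of the STAT3 acute phase list rose, with a median of 3.23, and all 18 of the STAT2 interferon list rose, with a median of 3.66. Saa3 (10.48, SE 0.21), Saa2 (9.14, SE 0.26) and Saa1 (6.91, SE 0.22), serum amyloid A proteins, had the smallest adjusted p values of the first, though A2m had a larger fold change (11.06, SE 0.54). Fga, a fibrinogen chain, had its highest mean over the 6 libraries (3.21, SE 0.17), while in control livers Hp, haptoglobin, was higher (5062 CPM, against 3029 CPM for Fga). Saa1 and Saa2 are near-identical, so their split is uncertain. Cxcl10 (5.63, SE 0.22), Zbp1 (4.67, SE 0.19) and Isg15 (6.29, SE 0.26) had the smallest adjusted p values of the second, in which Bst2 was the most abundant in both groups (1.69, SE 0.14). The response element printed above for Stat2 occurs in 8 of the 16 promoter windows matched to this list. These lists hold well-known responders to LPS and their earlier results on these samples were known, so their direction is not independent evidence.

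The STAT5 and STAT6 lists were mixed. Of 13 genes of the growth hormone and STAT5 list 9 fell and 2 rose (median -0.55), and 6 to 9 fell when a library was left out. Elovl3, a fatty acid elongase (84.3 ± 10.96 CPM in LPS and 466 ± 22.1 CPM in control livers, -2.47, SE 0.14), and Igfals, the carrier subunit of circulating IGF1 (-2.68, SE 0.16), fell, as did Mup3, the most abundant (-0.42, SE 0.17, adjusted p = 0.0436). The 2 that rose, Socs2 (3.36, SE 0.22) and Cish (1.497, SE 0.26), are inhibitors of the pathway and stand in that list too. Of 7 tested genes of the STAT6 list 5 rose and 1 fell (median 1.32). Chil3, a chitinase-like protein (6.21, SE 0.35), Tgm2, a transglutaminase (3.05, SE 0.18), Arg1, the urea cycle arginase (0.86, SE 0.18), and Klf4 (1.32, SE 0.32) rose. Retnla rose too, with 1 count in control livers, a ratio of 260 (95% counting interval 46.1 to 10306), and passed the filter only through LPS libraries. The mannose receptor Mrc1 fell (-1.70, SE 0.26). Chil3 is also in the monocyte marker list, which moved with it.

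**Figure D5:**
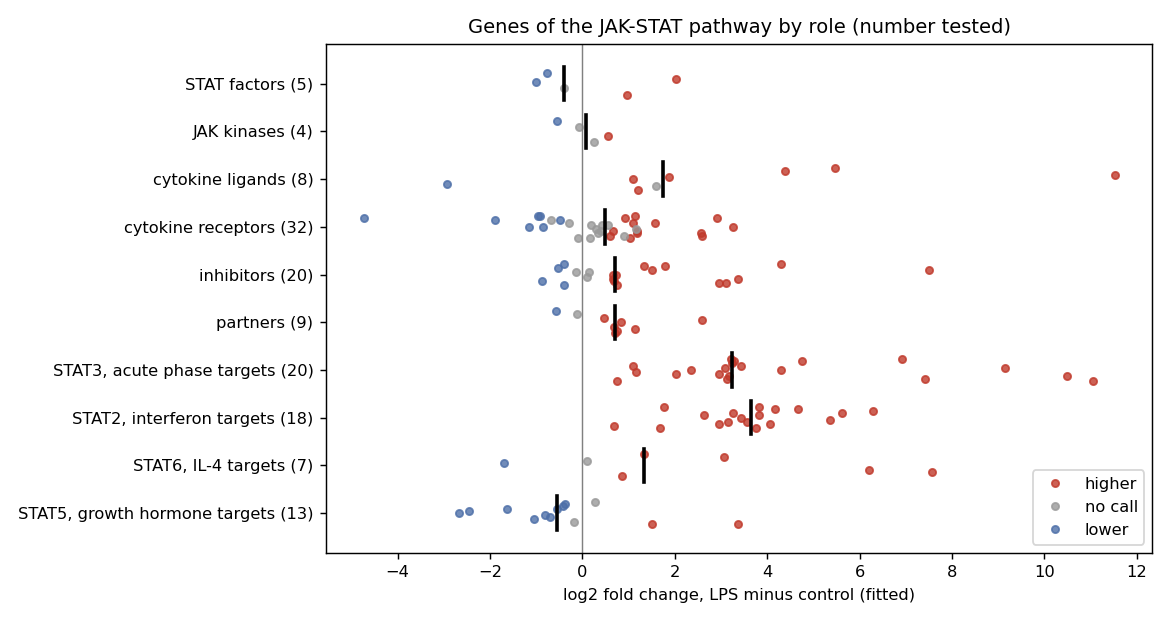
Log2 fold change, LPS minus control (horizontal), of tested genes by role in the pathway, with the number tested in brackets, points for genes (red higher, grey no call, blue lower) and black bars for list medians. The STAT3 and STAT2 target lists lie wholly to the right of 0 with medians of 3.23 and 3.66, and the STAT5 list mostly to the left with a median of -0.55.

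Markers of other cell types moved in the same libraries, and their part in the members' values was not tested. The shares over all genes tested, beside which the marker counts stand, were 31.3% higher and 31% lower. Neutrophil markers were tested for 9 of 12 and all 9 rose, with a summed level of 180 to 226 CPM in LPS and 5.61 to 8.51 CPM in control livers. Monocyte markers rose in 5 of 6 tested of 8, with sums of 58.0 to 73.8 CPM in LPS and 7.02 to 12.4 CPM in control livers. Of 13 T and NK cell markers 7 were tested and 3 rose, with sums of 14.0 to 17.9 CPM in LPS and 6.57 to 9.62 CPM in control livers. At control sums this low, neutrophil, monocyte and T and NK cell markers may have passed the filter only through LPS libraries. Their counts may therefore be partly set by the filter. The B cell markers summed to 6.40 to 8.16 CPM in LPS and 10.1 to 14.3 CPM in control livers, with 2 of 5 tested lower. The pan-leukocyte phosphatase Ptprc is in the inhibitor list and in none of the marker lists, and was picked outside the naming rule. It had 8.77 ± 2.32 CPM in LPS and 8.28 ± 0.452 CPM in control livers (0.09, SE 0.23, adjusted p = 0.751). What this value or the marker sums mean for the rise of Jak3 was not tested. Kupffer cell markers fell in 8 of 9 tested of 10 and rose in 1, with sums of 73.9 to 121 CPM in LPS and 290 to 334 CPM in control livers. Of 9 hepatocyte markers 7 fell, with a median of -0.54 and sums of 67350 to 92954 CPM in LPS and 109348 to 123201 CPM in control livers. Of 9 endothelial markers 5 fell and 2 rose, of 8 stellate cell markers 4 fell, and of 4 tested bile duct markers 3 rose and 1 fell. In all 9 marker lists no matched marker was at 0 in a whole group.

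The genes whose pattern over the 6 libraries was nearest to that of Stat3 were Tacc2, Xbp1 and Lrrc8a, among 7438 genes of at least 10 CPM on average. Their log2 levels, centred on the control mean, differed from those of Stat3 by 0.0689, 0.0925 and 0.103 in root mean square. For Tyk2, whose change in absolute size was nearly that of Jak3 (-0.56, SE 0.18, against 0.55, SE 0.16) and was the smaller one with counts halved (-0.54 against 0.57), they were Uckl1, Rxrb and Ap5z1, with differences of 0.0536, 0.0596 and 0.0620. With 2 groups of 3, such a likeness rests mostly on the size of the change between the groups.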

How the data were processed

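RNA of whole mouse livers was sequenced in 3 LPS and 3 control libraries. The deposited files hold a raw count for each gene, without normalization, as their values show. Per the submitters' processing notes, bcl2fastq 2.0, HISAT2, StringTie, DESeq2, limma and the build mm10 were used, with no roles. For the counting tool, annotation, strand setting and reads with several matches, nothing is stated in the sources used here. Fields of 8 characters shorten long symbols, so 20722 of 22488 genes were named by Entrez identifier from RefSeq, 879 by complete symbol and 887 as deposited. Positions and exon lengths are those of GENCODE M21 (GRCm38).

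Genes were compared with edgeR 4.0.16 in R 4.3.3: TMM scaling, filterByExpr (minimum count 10, minimum total 15), quasi-likelihood F test, 2-sided, Benjamini-Hochberg adjustment over 12078 genes, threshold 0.05. Standard errors were taken from the fold change and its F statistic. DESeq2 1.42.0, other scalings, no filter, a replicate block and leaving out each library were alternatives. Halved counts were added after the data were seen. Permutation tests used scipy 1.17.1. Counting intervals and floors cover counting error only. On simulated counts with 200 changed genes, among 11628 tested, edgeR recovered 28.4% of 1.5-fold, 69.2% of 2-fold and 93.8% of 4-fold changes. Of the simulated calls 6.06% were false. In the data 62.3% of genes passed, far more than were changed there, so these rates do not carry over to the members.

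The members and lists were chosen with earlier results of these data known. In each pathway list the rule names the 3 genes with the smallest adjusted p, the most abundant, and all that moved where at most 5 did in a direction. The likeness of patterns used log2 CPM with a prior count of 2. Other STAT genes were not analysed here. No column of values was left unused.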

Additional observations from a re-analysis of the deposited data

How the results depend on the processing

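Of 108 values of the 9 members under 12 alternatives, 105 kept their direction and their side of the threshold. The other 3 were all Tyk2 with a library left out, given with its result. The number of JAK genes lower in LPS ran from 0 to 1 and that of inhibitors lower from 2 to 3 when a library was left out, and the cause was not tested. Without a filter on low counts 2 genes of the STAT6 list fell, with more genes tested. Measured by the longest transcript, 7 ranks in the order of levels changed. No other count of genes moved by more than 1.5 times, though that of STAT5 list genes lower in LPS ran from 6 to 9. With libraries left out all genes higher in LPS numbered 3372 to 3635. The ratio of Stat5a to Stat5b ran from 0.25 to 0.52 on the log2 scale with a library left out.

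Libraries of the same repeat number correlated at -7.45e-04, 0.104 and 0.0352 after group means were removed, and 1 of 3 LPS libraries correlated best with its own number, so the numbers were not taken as pairs. With the number as a replicate block 7546 genes passed the threshold, against 7528 without it, and no member's call changed (Stat3 2.03, Tyk2 -0.54).

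Scaling by library totals alone moved the median of all genes to -0.05 and gave 46.3% of calls as higher, against 50.2%. At these depths 8 of 29 cytokine ligands passed the filter.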
